A study of Mus musculus with 14 samples.

Results

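The 10 genes described here, Slc7a11, Gclc, Gclm, Gpx1, Gpx3, Gpx4, Srxn1, Txnrd1, Prdx1 and Nqo1, encode a transporter and enzymes of glutathione and thioredoxin metabolism and the quinone reductase NQO1, and were chosen by name from the 33939 genes measured. Cells keep hydrogen peroxide and lipid peroxides low with the tripeptide glutathione and the protein thioredoxin, which pass electrons from NADPH to peroxidases. The transcription factor NRF2, encoded by Nfe2l2, is held in the cytoplasm and degraded through KEAP1. When KEAP1 is modified by oxidants or electrophiles, NRF2 enters the nucleus, displaces the repressor BACH1 and binds antioxidant response elements at many of these genes. Microglia and infiltrating macrophages meet heme, iron and their own oxidants in injured brain, and this system is well known in them.

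RNA sequencing was performed on CD11b+ microglia/macrophages isolated with magnetic beads from brains of male C57BL/6 mice aged 8 to 12 weeks, 3 days after traumatic brain injury (TBI) made by controlled cortical impact. Cells came from the injured ipsilateral (IL) hemisphere and the contralateral, non-lesion (CL) hemisphere. Control mice (Ctrl) carried Cx3cr1-CreER+/-, and knockout mice (cKO) carried Cx3cr1-CreER+/- with a floxed target gene on both alleles, so that its deletion depended on a Cre made in Cx3cr1-expressing cells. Every mouse received tamoxifen and was heterozygous for CreER, Ctrl animals included, and sham-operated brains were not analysed here. Of 14 libraries from 8 mice by their numbers, 4 were from each hemisphere in Ctrl and 3 from each hemisphere in cKO, and 6 mice gave both hemispheres. Values are CPM, the reads of a gene per 1000000 reads of its library, and fold changes are on the log2(CPM + 1) scale, which understates the change of genes with few reads. A gene is called changed where limma's adjusted p was at most 0.05 and the fold change at least 1.2. Fits treat libraries as independent unless the mouse is named as a block or random effect.

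Depth ranged from 12.2 to 41.6 M per library (M, 1000000 reads), with a median of 34.2 M, so that 1 CPM stood for 12.2 to 41.6 reads. The shallowest library was Ctrl IL of mouse 3546, which also lay below the other Ctrl IL libraries in Gpx1, Gpx4 and Prdx1. Results of the members that rest on it are given with and without it. The summed level of 10 microglial markers was 35001 to 41507 CPM in the CL libraries and 20724 to 25105 CPM in the IL libraries, and 7 of the 10 were called lower in Ctrl IL and 6 in cKO IL. Summed over 7 monocyte markers, Ctrl CL libraries were at 114 to 694 CPM and Ctrl IL libraries at 562 to 868 CPM, against 110 to 305 and 555 to 762 CPM in cKO, with 4 of 7 called higher in IL in each genotype. Neutrophil markers ran the other way, at 553 to 7823 CPM (CL) and 165 to 1017 CPM (IL) in Ctrl, and 587 to 1652 CPM (CL) and 236 to 372 CPM (IL) in cKO, with 0 of 9 called in Ctrl and 6 of 9 called lower in cKO. No marker of the microglial, monocyte or neutrophil lists was at 0 in all libraries of a group. Of the other lists, border-associated macrophage markers (163 to 788 CPM in sum over all groups) had 1 of 7 called higher in each genotype and 1 lower in Ctrl, and astrocyte markers had 1 of 5 higher in each genotype. Oligodendrocyte markers had 2 of 5 and endothelial markers 1 of 6 called higher in cKO, T and NK cell markers 2 of 3 called lower in Ctrl, and B cell, neuron and erythroid markers none called. Genes of the response to dissociation summed to 27590 to 42442 CPM in CL and 19340 to 22896 CPM in IL, with 4 of 10 called lower in cKO. The part of these shifts in the results on hemispheres was not tested, and in bulk samples fewer cells of a type and less RNA per cell cannot be told apart.

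All 10 members passed the filter on low values in every comparison. In Ctrl mice, 5 of the 10 members were called higher in the IL than in the CL hemisphere, and 0 were called lower. Of all 16376 genes tested in that comparison 6.58% were called, 3.63% as higher in IL. The 5 were Slc7a11, Srxn1, Gclm, Prdx1 and Txnrd1. In cKO mice 6 of the 10 were called higher, the same 5 and Gpx1, where 22.4% of 16758 genes were called and 12.8% were called higher. Between the genotypes, 0 of the 10 members were called in either hemisphere. The median log2 fold change of the members from CL to IL was 1.004 in Ctrl and 0.76 in cKO, beside -0.04 and 0.02 for all genes tested, and each of the 10 members had a fold change above 0 in each genotype, as did 45.5% of genes in Ctrl and 52.0% in cKO.

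**Figure D1:**
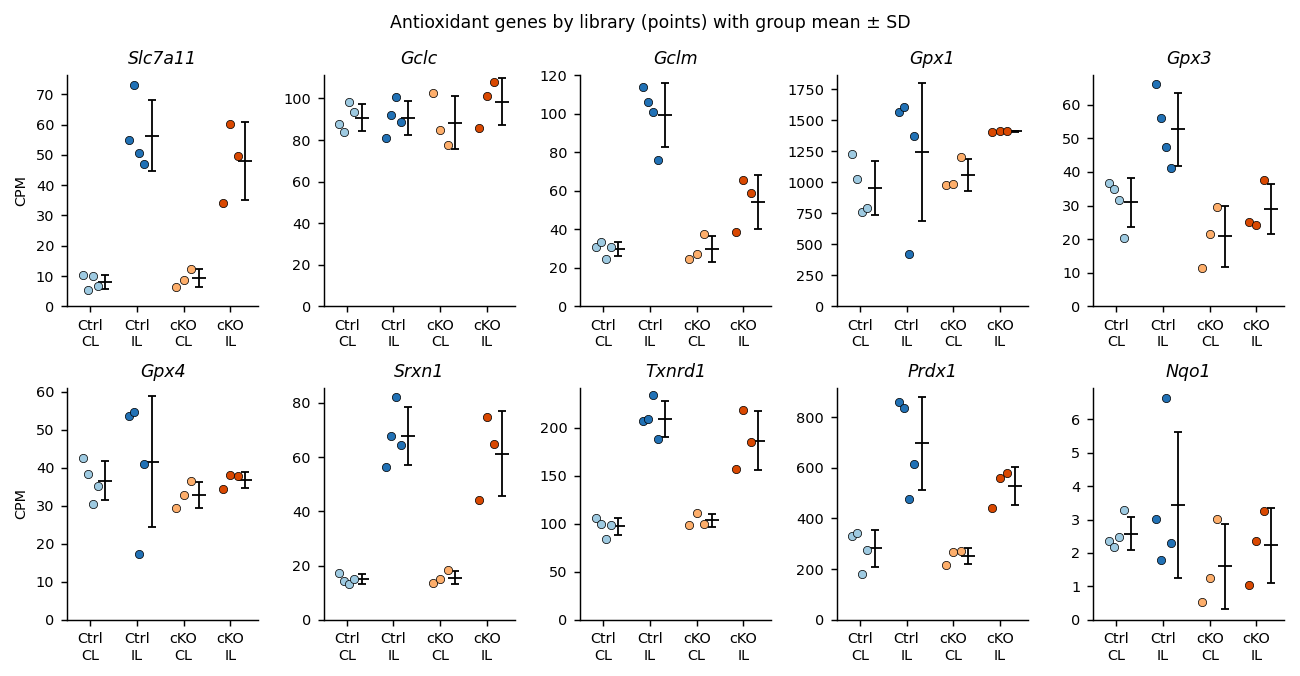
CPM of each member in each of the 14 libraries (points), with the group mean and SD beside them, from a CL and an IL group of each genotype on axes that start at 0. Slc7a11, Gclm, Srxn1, Txnrd1 and Prdx1 lie higher in every IL library than in every CL library of the same genotype, Gclc overlaps throughout, and the Ctrl IL library of mouse 3546 is the low point of Gpx1 (422 CPM) and Gpx4 (17.3 CPM).

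The antioxidant response element has a core written TGACNNNGC, and it was searched on both strands of the RefSeq promoter windows (build GRCm38.p6, from 250 bases before to 50 after each transcript start). Of 32851 windows in the mouse genome, 12.4% held the core somewhere and 10.2% held it before the start. Counted by gene, any window of a gene sufficing, these shares were 14% and 11.5% of 27025 genes. Windows were given for 9 of the 10 members, Gclc having none in the table. Gclm, Txnrd1 and Prdx1 each had a match before a start, and these stretches are shown because they lie in 3 of the 5 members called higher in both genotypes. Each is printed on the plus strand, which is the strand of the gene, and the capitals mark the core, which reads TGACNNNGC on the opposite strand.
Gclm, chr3:122245397-122245457: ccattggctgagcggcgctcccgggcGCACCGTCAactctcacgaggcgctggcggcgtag
Txnrd1, chr10:82859088-82859148: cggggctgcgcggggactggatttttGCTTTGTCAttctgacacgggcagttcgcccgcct
Prdx1, chr4:116685440-116685500: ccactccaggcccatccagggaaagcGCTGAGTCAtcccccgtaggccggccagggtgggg

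The core began 134 bases before the start of Gclm, 92 bases before 1 of the 3 annotated starts of Txnrd1 and 133 bases before that of Prdx1. Srxn1 had a match that began 28 bases after its start. No match lay in the windows of Slc7a11, Gpx1, Gpx3, Gpx4 (4 windows) or Nqo1, which says only that these letters are absent from these stretches. A match is a description of sequence and was not tested for binding in these cells.

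The supply of glutathione begins with Slc7a11 and the 2 subunits of glutamate-cysteine ligase. Slc7a11 (ENSMUSG00000027737, chr3:49892526-50443614, minus strand, GRCm38) encodes the light chain of the cystine-glutamate exchanger that brings in cystine, the source of cysteine for glutathione. It was at 10.2, 5.42, 9.96 and 6.78 CPM in the Ctrl CL libraries of mice 3541, 3545, 3546 and 3551, and at 54.8, 73.1, 50.5 and 47.0 CPM in their IL libraries. In cKO it was at 6.50, 8.84 and 12.4 CPM in CL (mice 788, 791 and 3592) and at 34.2, 60.1 and 49.5 CPM in IL (mice 784, 791 and 3592). Every IL library was thus above every CL library, and within the 6 mice the IL level was 3.99 to 13.5 times the CL level. For Slc7a11 the log2 fold change was 2.74 in Ctrl (SE 0.26, 6.70-fold, limma adjusted p = 0.000565) and 2.34 in cKO (SE 0.25, 5.06-fold, limma adjusted p = 0.00183). This was the largest fold change among the 10 members in each genotype. The Slc7a11 transcript with the longest coding part shares 373 bases with the alpha-tubulin genes Tuba1a, Tuba1b and Tuba1c, at 95.44% to 96.25% identity. Pseudogenes and a noncoding RNA match it at 95.2% to 96.5%, in a search with a lower limit of identity. Reads of that stretch are therefore uncertain. Among the tubulin genes, Tuba1c had a log2 fold change of 0.96 in Ctrl (limma adjusted p = 0.0759) and rose in cKO (1.12, limma adjusted p = 0.00183). Tuba1a had -0.65 in Ctrl (limma adjusted p = 0.0521) and fell in cKO (-0.57, limma adjusted p = 0.0264), and Tuba1b was not called in either.

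Glutamate-cysteine ligase joins cysteine to glutamate, the rate-limiting step of glutathione synthesis, and consists of a catalytic subunit, encoded by Gclc, and a modifier subunit, encoded by Gclm, that raises its activity. Gclm (ENSMUSG00000028124, chr3:122245557-122270732, plus strand) was at 30.7, 33.4, 24.8 and 30.6 CPM in Ctrl CL and at 114, 106, 101 and 76.1 CPM in Ctrl IL. In cKO it was at 24.4, 27.4 and 37.4 CPM in CL and at 38.5, 65.7 and 58.7 CPM in IL. IL libraries were above CL libraries in both genotypes without overlap, and the 3 cKO IL libraries all lay under the lowest Ctrl IL library. From CL to IL the log2 fold change of Gclm was 1.76 in Ctrl (SE 0.23, 3.40-fold, limma adjusted p = 0.0022) and 0.92 in cKO (SE 0.22, 1.89-fold, limma adjusted p = 0.0202). The cKO call was lost when the CL library of mouse 788 or 791 or the IL library of mouse 791 or 3592 was left out, with limma adjusted p from 0.0581 to 0.0682. Gclm shares exonic sequence with 2 other genes. Gm17494, on the opposite strand, shares 296 bases, where reads cannot be told apart because the library kit does not mark strand. It lay between 95.6 and 271 CPM, and had a log2 fold change of -0.12 in Ctrl (limma adjusted p = 0.930) and 0.43 in cKO (limma adjusted p = 0.0734). Gm6061, on the same strand, shares 244 bases and reached at most 9.54 CPM.

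Gclc (ENSMUSG00000032350, chr9:77754535-77794485, plus strand) stood at nearly the same level in the 4 groups. It was at 87.5, 83.8, 98.1 and 93.7 CPM in Ctrl CL, 80.8, 91.8, 100.8 and 88.7 CPM in Ctrl IL, then 102.6, 84.9 and 77.6 CPM in cKO CL, and 85.9, 101.2 and 108.1 CPM in cKO IL. The groups overlapped in both genotypes. Its log2 fold change was 0.07 in Ctrl (95% interval -0.22 to 0.35, limma adjusted p = 0.847) and 0.24 in cKO (95% interval -0.08 to 0.57, limma adjusted p = 0.256), so a change of 2-fold lay outside both intervals. With the mouse as a block the cKO value was 0.47 and was called (limma adjusted p = 0.0471), a fit that rests on mice 791 and 3592, in which the IL level was 1.19 and 1.39 times the CL level. It was also called with the mouse as a random effect over all 14 libraries (0.34, limma adjusted p = 0.0406). The ratio of Gclm to Gclc CPM, a measure taken up after the values were seen and not tested, was 0.253 to 0.399 in Ctrl CL, 0.859 to 1.41 in Ctrl IL, 0.238 to 0.483 in cKO CL and 0.448 to 0.649 in cKO IL.

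**Figure D2:**
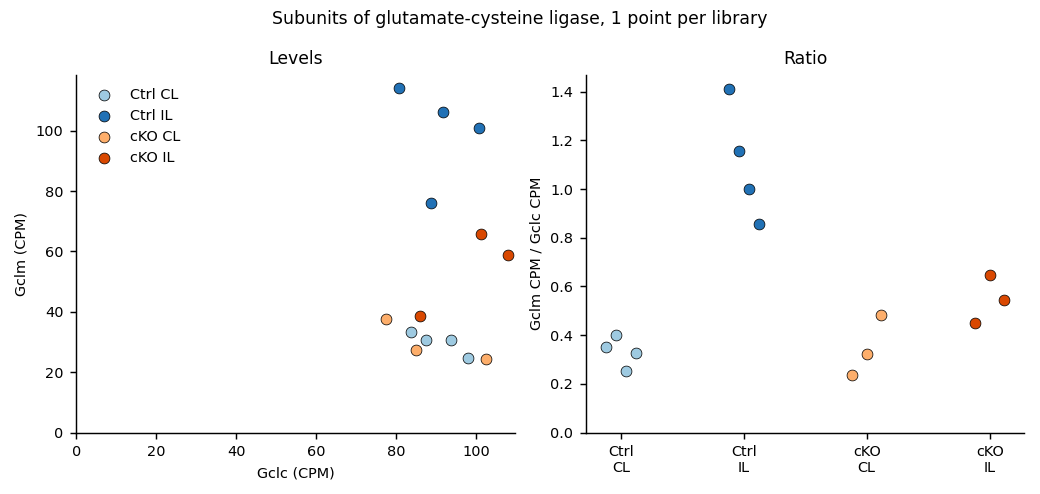
Left, CPM of Gclm (vertical axis) against CPM of Gclc (horizontal axis), and right, the ratio of the CPM of Gclm to that of Gclc (no unit) by group, with 1 point per library. Gclc spans 77.6 to 108.1 CPM over all groups while Gclm spans 24.4 to 114 CPM, and the 4 Ctrl IL libraries have ratios of 0.859 to 1.41 against 0.448 to 0.649 in the 3 cKO IL libraries.

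The glutathione peroxidases among the members reduce peroxides with glutathione at a selenocysteine, an amino acid read from a TGA codon that elsewhere ends translation. Thioredoxin reductase 1 carries the same residue near its end. The codon was found inside the coding sequence of the 3 peroxidase members and of Txnrd1, and in 0 of the other 6 members. The stretches are shown because selenocysteine is a feature these 4 members share that did not enter their selection, and the capitals mark the TGA codon in the coding strand, which is the plus strand in each case (GRCm38).
Gpx1, codon 47 of 201, chr9:108339451-108339453: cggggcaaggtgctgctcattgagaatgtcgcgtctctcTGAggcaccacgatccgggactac
Gpx3, codon 73 of 226, chr11:54907256-54907258: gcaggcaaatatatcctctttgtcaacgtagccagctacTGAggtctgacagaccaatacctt
Gpx4, codon 129 of 253, chr10:80054737-80054739: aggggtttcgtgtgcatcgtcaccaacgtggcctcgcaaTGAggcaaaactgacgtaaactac
Txnrd1, codon 612 of 613, chr10:82896037-82896039: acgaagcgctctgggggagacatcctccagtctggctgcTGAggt

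Of these 4 selenoprotein genes, Txnrd1 was called higher in IL in both genotypes, Gpx1 in cKO alone by call, and Gpx3 and Gpx4 in neither. Gpx1 (ENSMUSG00000063856, chr9:108338903-108340343, plus strand) encodes the cytosolic glutathione peroxidase that reduces hydrogen peroxide. It was at 1225, 1027, 762 and 796 CPM in Ctrl CL and at 1570, 1607, 422 and 1373 CPM in Ctrl IL. In cKO it was at 981, 983 and 1205 CPM in CL and at 1406, 1410 and 1414 CPM in IL. The cKO groups did not overlap, whereas in Ctrl the IL library of mouse 3546 was the lowest of all 14 and the other 3 IL libraries were above every CL library. For Gpx1 this gave a log2 fold change of 0.51 in cKO (SE 0.14, 1.42-fold, limma adjusted p = 0.0338) and 0.31 in Ctrl (SE 0.47, limma adjusted p = 0.796). The cKO call was lost with the mouse as a block (0.48, limma adjusted p = 0.147), without the filter on low values (limma adjusted p = 0.0695), in the fits over all 14 libraries, and on leaving out any of 4 libraries (CL of 788 or 791, IL of 784 or 791, limma adjusted p from 0.0965 to 0.118). Without the IL library of mouse 3546 the Ctrl value was 0.83 (limma adjusted p = 0.0877).

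Gpx4 (ENSMUSG00000075706, chr10:80047166-80056439, plus strand), the peroxidase of membrane phospholipid hydroperoxides that guards against ferroptosis, was at 42.5, 38.4, 30.4 and 35.1 CPM in Ctrl CL and 53.6, 54.5, 17.3 and 40.9 CPM in Ctrl IL. It was at 29.4, 32.7 and 36.4 CPM in cKO CL and 34.3, 38.1 and 37.9 CPM in cKO IL, and the groups overlapped in both genotypes. As for Gpx1, the low value in Ctrl IL was that of mouse 3546. Gpx4 had a log2 fold change of 0.14 in Ctrl (95% interval -0.74 to 1.02, limma adjusted p = 0.912), 0.56 without that library (limma adjusted p = 0.175), and 0.25 in cKO (95% interval -0.01 to 0.50, limma adjusted p = 0.144). The level of Gpx4 itself is uncertain, because Gpx4-ps2 matches 733 bases of it at 99.7% identity and was listed at 56.2 to 224 CPM, above Gpx4 in each group mean. Gpx4-ps2 rose in cKO IL (log2 fold change 0.36, limma adjusted p = 0.0201) and had 0.13 in Ctrl (limma adjusted p = 0.932).

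Gpx3 (ENSMUSG00000018339, chr11:54902453-54910377, plus strand) encodes the secreted peroxidase of extracellular fluid. Its level was 36.7, 34.9, 31.8 and 20.3 CPM in Ctrl CL, 66.2, 56.1, 47.3 and 41.2 CPM in Ctrl IL, then 11.3, 21.6 and 29.6 CPM in cKO CL, and 25.2, 24.3 and 37.5 CPM in cKO IL. Every Ctrl IL library exceeded every Ctrl CL library, while the cKO groups overlapped. The Ctrl log2 fold change of 0.83 (SE 0.29) missed the threshold (limma adjusted p = 0.133) and was called with the mouse as a block (limma adjusted p = 0.00311), a fit that called 20.5% of all genes in Ctrl and 13.8% in cKO. Within the 4 Ctrl mice the IL level of Gpx3 was 1.49 to 2.02 times the CL level, and within the 2 cKO mice 1.12 and 1.27 times. The cKO value of 0.61 (SE 0.29, limma adjusted p = 0.164) was called only on leaving out the CL library of mouse 3592 (0.89, limma adjusted p = 0.0280). Other omissions took it as low as 0.27, and with the mouse as a block it was 0.35 (limma adjusted p = 0.188).

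Among the thiol-reducing members, Srxn1 (ENSMUSG00000032802, chr2:152105516-152111376, plus strand) encodes sulfiredoxin, which restores peroxiredoxins that peroxide has overoxidised. It was at 17.4, 14.2, 13.3 and 15.1 CPM in Ctrl CL and at 56.5, 67.8, 82.1 and 64.5 CPM in Ctrl IL, then at 13.4, 15.1 and 18.2 CPM in cKO CL and at 44.1, 74.9 and 65.0 CPM in cKO IL. The lowest IL library stood well above the highest CL library in each genotype (56.5 over 17.4 CPM in Ctrl, 44.1 over 18.2 CPM in cKO). For Srxn1 the log2 fold change came to 2.17 in Ctrl (SE 0.17, 4.49-fold, limma adjusted p = 0.000212) and 1.97 in cKO (SE 0.20, 3.92-fold, limma adjusted p = 0.00183). Srxn1 and Slc7a11 kept their calls under every alternative run, 21 of 21 settings in Ctrl and 18 of 18 in cKO.

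Txnrd1 (ENSMUSG00000020250, chr10:82833951-82897712, plus strand) encodes thioredoxin reductase 1, which recharges thioredoxin with electrons from NADPH. Its libraries stood at 105, 100.1, 83.7 and 98.9 CPM in Ctrl CL, 207, 209, 234 and 188 CPM in Ctrl IL, then 99.0, 111 and 99.8 CPM in cKO CL, and 157, 218 and 184 CPM in cKO IL. The spread within groups was small beside the step between hemispheres, and IL was 1.85 to 2.80 times CL within the 6 mice. Txnrd1 rose by a log2 fold change of 1.18 in Ctrl (SE 0.17, 2.26-fold, limma adjusted p = 0.00396) and 0.92 in cKO (SE 0.14, 1.89-fold, limma adjusted p = 0.00482).

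Prdx1 (ENSMUSG00000028691, chr4:116685544-116700822, plus strand) encodes a cytosolic peroxiredoxin that reduces hydrogen peroxide with electrons from thioredoxin. It was at 329.9, 342, 180.3 and 276 CPM in Ctrl CL, 861, 834, 476 and 615 CPM in Ctrl IL, then 214, 267 and 271 CPM in cKO CL, and 441, 559 and 580.1 CPM in cKO IL. Both libraries of mouse 3546 were the lowest of their Ctrl groups, and yet its ratio of IL to CL, 2.64, was close to the 2.23 to 2.61 of the other 3 Ctrl mice and the 2.09 and 2.14 of the cKO mice. In Prdx1 the log2 fold change was 1.38 in Ctrl (SE 0.33, 2.60-fold, limma adjusted p = 0.0378) and 1.15 in cKO (SE 0.13, 2.22-fold, limma adjusted p = 0.00217). The Ctrl call was lost when any of 6 libraries was left out, 3 of the CL group (3545, 3546, 3551) and 3 of the IL group (3541, 3545, 3551), with adjusted p from 0.0564 to 0.117, and without the filter on low values (limma adjusted p = 0.0948). Leaving out the IL library of mouse 3546 gave 1.61 in Ctrl (limma adjusted p = 0.00958). With the mouse as a block, the Ctrl value of 1.38 was called with a smaller SE (0.083, limma adjusted p = 0.000224). Pseudogenes Gm7204 and Gm21399 match the coding part of Prdx1 at 97.5% and 98.3% identity, and held 8.29% to 15.2% of the summed CPM of the 3 genes, so part of the reads may be shared.

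Nqo1 (ENSMUSG00000003849, chr8:107388225-107403206, minus strand) encodes a quinone reductase that is widely used as a readout of NRF2 activity. In these cells its level was low, at most 6.63 CPM in any library. It was at 2.36, 2.18, 2.47 and 3.30 CPM in Ctrl CL, 3.02, 1.79, 6.63 and 2.31 CPM in Ctrl IL, then 0.526, 1.24 and 3.02 CPM in cKO CL, and 1.05, 2.35 and 3.27 CPM in cKO IL. The highest value was in Ctrl IL of mouse 3546, and all groups overlapped. Its log2 fold change was 0.26 in Ctrl (95% interval -0.34 to 0.86, limma adjusted p = 0.675; 0.01 without that library) and 0.42 in cKO (95% interval -0.43 to 1.27, limma adjusted p = 0.452).

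**Figure D3:**
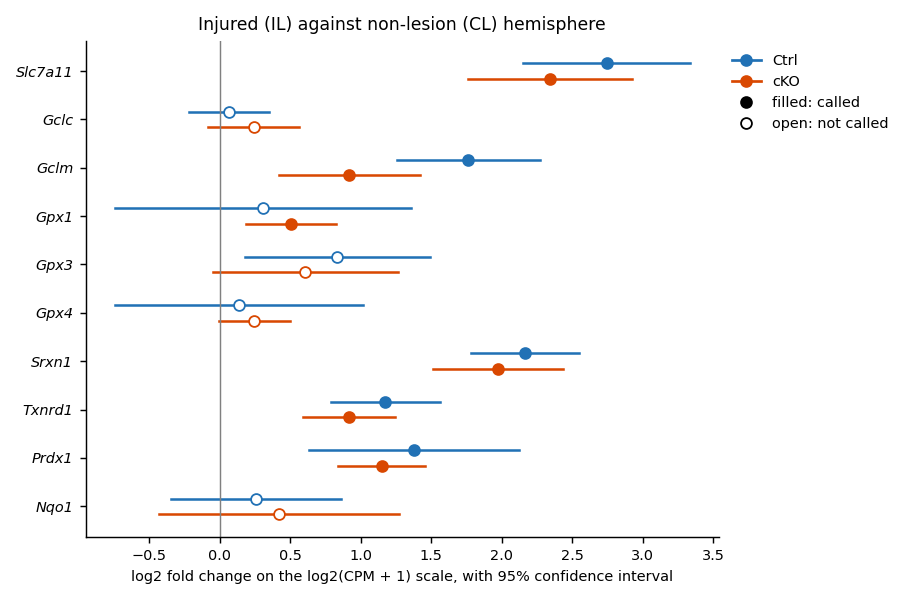
Log2 fold change of IL over CL (horizontal axis, log2(CPM + 1) scale, with 95% confidence interval) for each member in Ctrl and cKO, with filled points for called genes. Slc7a11 is farthest right in both genotypes (2.74 and 2.34), Gclm sits at 1.76 in Ctrl and 0.92 in cKO, and the intervals of Gclc and Nqo1 cross 0 in both.

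Libraries of the IL group were all above those of the CL group for 6 of the 10 members in Ctrl (the 5 called and Gpx3) and for the 6 called members in cKO. Such separation in either direction was met by 17.7% of all genes in Ctrl and by 42.4% in cKO.

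To compare levels between genes, CPM was divided by the kilobases of all annotated exons of a gene, whether or not these cells use them. A gene with long unused exons would be placed too low on this scale. On it Gpx1 was the most abundant member, with group means of 661 to 979, followed by Prdx1 with 82.4 to 229. A middle band held Gclc at 23.5 to 26.1, Gpx4 at 19.0 to 24.1, Txnrd1 at 13.7 to 29.5, Gpx3 at 11.5 to 29.1, Srxn1 at 5.32 to 24.0 and Gclm at 4.73 to 15.8, and in the IL groups several of these neighbours overlapped in their library ranges. Slc7a11, at 0.58 to 4.05, and Nqo1, at 1.03 to 2.21, were the lowest. Their order rests on the length used, 13922 bases for Slc7a11 and 1553 for Nqo1. By CPM alone, Slc7a11 averaged 8.10 and Nqo1 2.58 in Ctrl CL. In Ctrl CL the order ran Gpx1, Prdx1, Gclc, Gpx4, Gpx3, Txnrd1, Srxn1, Gclm, Nqo1 and Slc7a11. In that order Gclc overlapped Gpx4 in its library range, Gpx4 overlapped Gpx3, Gpx3 overlapped Txnrd1 and Srxn1 overlapped Gclm, and the other neighbours did not. The place of Gpx4 is uncertain, since its 2 near-identical copies held 78.25% to 81.15% of the CPM summed over Gpx4 and those copies in the Ctrl CL libraries. In Ctrl IL Slc7a11 (3.38 to 5.25 per library) stood above Nqo1 in the mean, although the highest Nqo1 library (4.27) overlapped it.

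Knockout and control mice were then compared within each hemisphere, the question being whether the deletion in Cx3cr1-expressing cells was accompanied by other levels of these genes. In IL, 0 of the 10 members were called, where 0.662% of 16919 genes were called (112 genes, and 1508 at an unadjusted p under 0.05). The members with an unadjusted p under 0.05 were Gclm and Gpx3. For Gclm (76.1 to 114 CPM in Ctrl, 38.5 to 65.7 CPM in cKO) the log2 difference of cKO from Ctrl was -0.87 (SE 0.24, 95% interval -1.42 to -0.31, limma adjusted p = 0.253). For Gpx3 (41.2 to 66.2 CPM in Ctrl, 24.3 to 37.5 CPM in cKO) it was -0.83 (SE 0.24, 95% interval -1.39 to -0.28, limma adjusted p = 0.269). In both genes the cKO values lay entirely under the Ctrl values, a separation that 10.3% of all genes showed in this comparison, and neither difference passed the adjusted threshold under any alternative run (lowest limma adjusted p 0.0959 and 0.0700). Summed over 7 border-associated macrophage markers, Ctrl IL libraries were at 421 to 788 CPM and cKO IL libraries at 269 to 611 CPM, with 0 of 7 called. Without the highest library of each group, mouse 3546 in Ctrl and mouse 3592 in cKO, they were at 421 to 482 and 269 to 350 CPM. Of the markers of any cell type, the 1 called between genotypes in IL was a microglial gene, lower in cKO. Their part in these values was not tested. Gm17494, the gene that overlaps Gclm, had a log2 difference of 0.18 (limma adjusted p = 0.963).

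The other 8 members gave log2 differences in IL of -0.23 for Slc7a11 (95% interval -0.83 to 0.36), -0.15 for Srxn1, -0.16 for Txnrd1, -0.36 for Prdx1, 0.13 for Gclc, 0.37 for Gpx1, -0.04 for Gpx4 and -0.40 for Nqo1, all with overlapping libraries. Without the Ctrl IL library of mouse 3546 the differences were -0.16 for Gpx1, -0.47 for Gpx4, -0.60 for Prdx1 and -0.15 for Nqo1, and none of these was called (lowest limma adjusted p 0.179). The median over the 10 members was -0.20, against 0.01 over all genes. The 95% intervals ran from -0.57 to 0.27 for Srxn1, -0.52 to 0.20 for Txnrd1 and -1.02 to 0.30 for Prdx1, and were wider for Gpx1 (-0.78 to 1.52) and Gpx4 (-1.01 to 0.93).

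In CL, 0 of the 10 members were called and 0 had an unadjusted p under 0.05, where limma called 0.875% of 16570 genes (145 genes, and 1625 at an unadjusted p under 0.05). No member separated the genotypes without overlap, which 10% of genes did. Gclm ran from 24.8 to 33.4 CPM in Ctrl and from 24.4 to 37.4 CPM in cKO, with a log2 difference of -0.03 (95% interval -0.50 to 0.44, limma adjusted p = 0.9752). The largest differences were those of Gpx3, at -0.62 (95% interval -1.34 to 0.10, limma adjusted p = 0.584), and Nqo1, at -0.58 (95% interval -1.22 to 0.06, limma adjusted p = 0.562). The border-associated macrophage markers summed to 302 to 681 CPM in Ctrl CL and 163 to 456 CPM in cKO CL, with 0 of 7 called, and of the markers of any cell type the 1 called between genotypes in CL was an oligodendrocyte gene, lower in cKO. Their part in these values was not tested.

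Whether the step from CL to IL differed between genotypes was tested as an interaction over the 14 libraries. The test called 0 of the 10 members and 0 (0%) of 18476 genes, of which 481 had an unadjusted p under 0.05, and 3 genes were called by limma with the mouse as a random effect. Gclm was the 1 member with an unadjusted p under 0.05, its change from CL to IL being smaller in cKO (difference of the log2 fold changes, cKO less Ctrl, -0.84, SE 0.34, 95% interval -1.56 to -0.12, limma adjusted p = 0.9999). The values of the others ran from -0.40 for Slc7a11 (95% interval -1.25 to 0.45) to 0.21 for Gpx1 (95% interval -1.09 to 1.504), and so the Gpx1 call in cKO and its absence in Ctrl were not shown to differ. Without the Ctrl IL library of mouse 3546, Gpx1 went to -0.34, Gpx4 from 0.11 to -0.33, Prdx1 from -0.22 to -0.47, Gpx3 from -0.22 to -0.34 and Nqo1 from 0.16 to 0.40, and none of the 10 members was called.

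**Figure D4:**
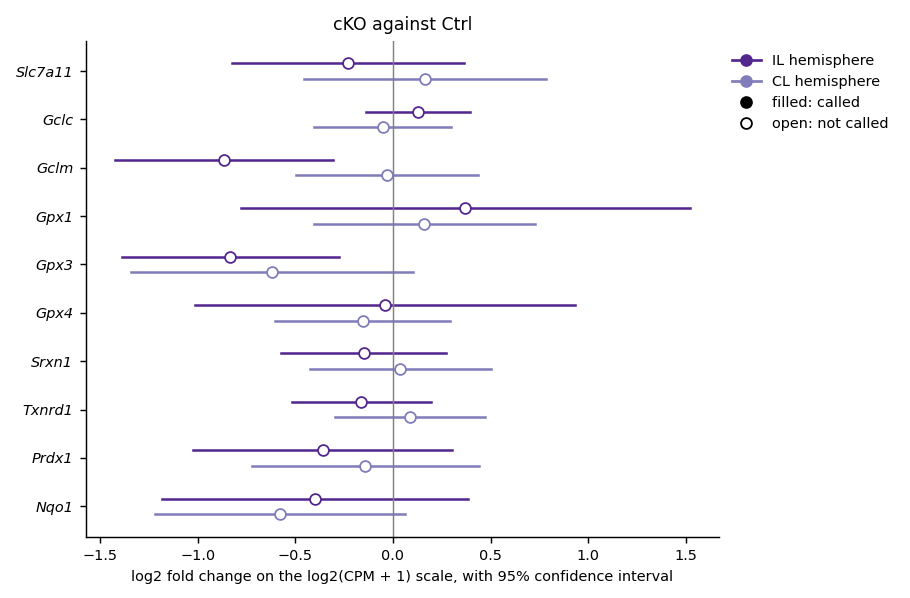
Log2 difference of cKO from Ctrl (horizontal axis, log2(CPM + 1) scale, with 95% confidence interval) for each member in IL and in CL. All points are open, since 0 members were called, and the IL intervals of Gclm (-1.42 to -0.31) and Gpx3 (-1.39 to -0.28) are the ones that do not reach 0.

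The pattern of each called member over the 14 libraries was compared with that of all 18476 genes in the interaction fit, as the root mean square difference of z-scored log2 values (0 for an identical pattern, and a median of 1.33 to 1.38 over all genes). Slc7a11 was most like Adam8 (0.152), Mir22hg (0.158) and Vegfa (0.176). Srxn1 was most like Impdh1 (0.174), Vdr (0.179) and Selp (0.180), and Txnrd1 like Vegfa (0.180), Procr (0.193) and Neu1 (0.197). Gclm was closest to Slc48a1 (0.156), a heme transporter gene, followed by Rnf128 (0.215) and Ttc39c (0.242). For Prdx1 they were Esd (0.114), Gm5456 (0.135) and Ptgr1 (0.173), and for Gpx1 Sf3b5 (0.206), 0610012G03Rik (0.224) and Mrpl54 (0.224). Between members the smallest differences were those of Slc7a11 with Srxn1 (0.190) and Srxn1 with Txnrd1 (0.212). Gpx1 lay nearest to Gpx4 (0.371) and farthest from Nqo1 (1.55).

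Beside the 10 members, 105 other genes of glutathione, thioredoxin, selenoprotein and NRF2 metabolism were in the data, in 8 lists. In Ctrl, 13 of the 103 tested were called higher in IL and 2 lower (29 and 10 with the mouse as a block), with a median log2 fold change of 0.19 against -0.04 for all genes. Over all genes 6.58% were called in Ctrl (3.63% higher in IL), and 20.5% with the block. In cKO, 33 of the 99 tested were called higher and 6 lower (24 and 4 with the mouse as a block), with a median of 0.30 against 0.02, where 22.4% of all genes were called (12.8% higher in IL), and 13.8% with the block. The lists differ in size and were not tested against each other. The quinone, heme and NADPH genes that NRF2 is known to drive had 8 higher and 1 lower of 21 in Ctrl (13 and 1 with the mouse as a block) and 12 higher and 1 lower of 21 in cKO (7 and 1 with the block). Glutathione synthesis beyond the members had 0 of 11 called in Ctrl (1 higher and 2 lower with the block) and 1 lower of 9 in cKO (0 with the block), and glutathione transferases had 0 of 19 in Ctrl (4 higher and 2 lower with the block) and 1 higher of 18 in cKO.

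Hmox1, which encodes heme oxygenase 1, the enzyme that opens the heme ring, had the largest change of these genes. In Ctrl it averaged 126 ± 51.5 CPM in CL and 1026 ± 292 CPM in IL (SD, n = 4), and in cKO 73.4 ± 34.0 CPM in CL and 573 ± 230.1 CPM in IL (SD, n = 3). The log2 fold change was 3.13 in Ctrl (SE 0.31, limma adjusted p = 0.000565) and 3.05 in cKO (SE 0.40, limma adjusted p = 0.00289). In Ctrl the next were Akr1b8 (1.96), an aldo-keto reductase, Prdx6 (1.81), a peroxiredoxin, Slc48a1 (1.73) and Fth1 (1.58), the ferritin heavy chain that stores iron. Txnip, which encodes the inhibitor that binds thioredoxin, fell by 1.41 on the log2 scale. In cKO, Prdx6 (1.53), Fth1 (1.41), Selenow (1.36), a small selenoprotein, and Akr1b8 (1.35) rose, and Txnip fell by 1.73. The place of Akr1b8 depends on the pseudocount, since with the smallest tried it had 2.97 in Ctrl and 2.26 in cKO. The Fth1 call in Ctrl was lost on leaving out any Ctrl library but the IL library of mouse 3546, with adjusted p from 0.0604 to 0.134, and with no filter on low values (limma adjusted p = 0.131), and the Akr1b8 call in cKO without the IL library of mouse 791 (limma adjusted p = 0.0603). The Selenow call in cKO was lost in the fit over all 14 libraries (1.38, limma adjusted p = 0.127). In Ctrl, Selenow had 1.48 (limma adjusted p = 0.141; called with the mouse as a block, adjusted p = 0.0228), with 14.7 CPM in its lowest IL library against a median of 68.9 CPM.

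The thioredoxin and peroxiredoxin list held 1 higher (Prdx6) and 1 lower (Txnip) of 13 in Ctrl (1 and 3 with the block), and 6 higher and 2 lower of 13 in cKO (5 and 2 with the block). Glutathione peroxidases and recycling enzymes had 0 of 7 called in Ctrl (2 higher with the block) and 4 of 7 higher in cKO (3 with the block). Of 4 superoxide dismutase and catalase genes 0 were called in Ctrl (1 higher with the block) and 1 was called higher in cKO (1 with the block). Selenoprotein synthesis and the remaining selenoproteins had 2 of 18 higher in Ctrl (5 higher and 2 lower with the block) and 7 higher and 2 lower of 17 in cKO (5 and 1 with the block). For these lists the difference between genotypes was tested gene by gene in the interaction, which called 0 of 103.

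**Figure D5:**
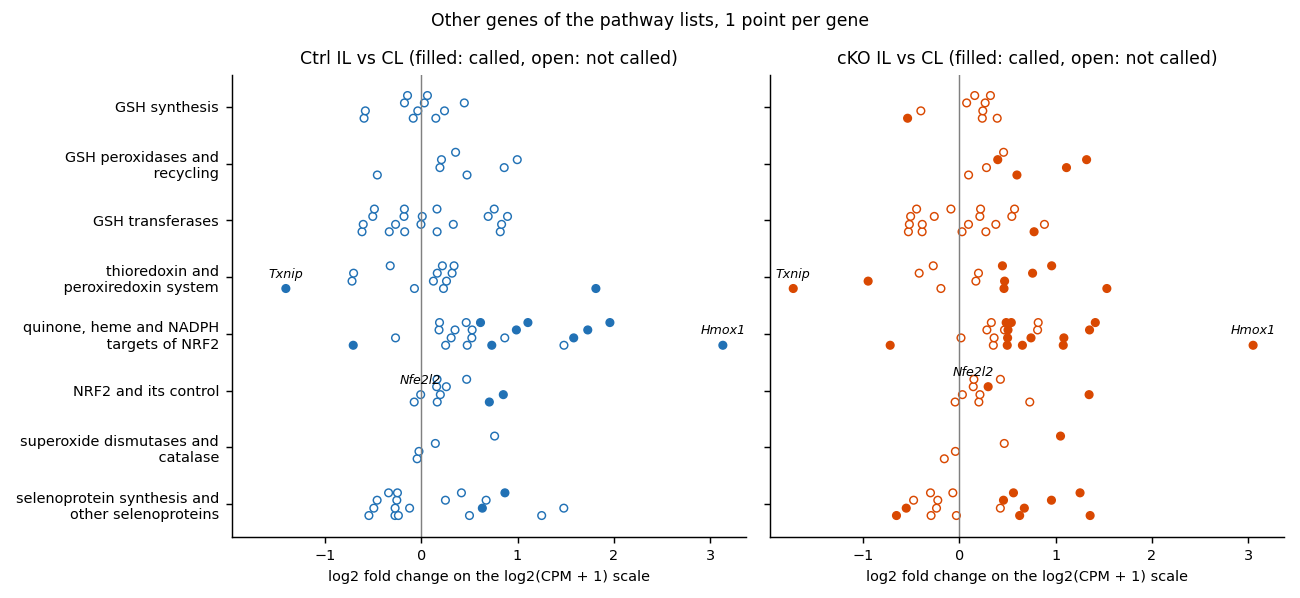
Log2 fold change of IL over CL (horizontal axis, log2(CPM + 1) scale) of the other pathway genes, 1 point per gene in rows by list, in Ctrl (left) and cKO (right), with filled points for called genes. Hmox1 lies farthest right (3.13 and 3.05) and Txnip farthest left (-1.41 and -1.73), while Nfe2l2 is near 0 in both (-0.01 and 0.14).

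The regulators Nfe2l2, Keap1 and Bach1 were not called in either genotype. In Ctrl, Nfe2l2 averaged 456 ± 82.0 CPM in CL and 429.8 ± 59.6 CPM in IL (SD, n = 4), and in cKO 405 ± 48.8 CPM in CL and 421 ± 42.9 CPM in IL (SD, n = 3). Its log2 fold change was -0.01 in Ctrl (limma adjusted p = 0.994) and 0.14 in cKO (limma adjusted p = 0.545). Keap1 had 0.17 (limma adjusted p = 0.737) and 0.20 (limma adjusted p = 0.546), and Bach1 0.47 (limma adjusted p = 0.169) and 0.15 (limma adjusted p = 0.609). Bach1 was called in Ctrl with the mouse as a random effect over all 14 libraries (0.49, limma adjusted p = 0.0328), and with the mouse as a block without both libraries of mouse 3546 (0.65, limma adjusted p = 0.0129), an alternative chosen after the values were seen. Of the 10 genes of NRF2 and its control, 2 were called higher in Ctrl (Sqstm1 at 0.71 and Maff at 0.85) and 2 in cKO (Maff at 1.35 and Rbx1 at 0.30, of which Rbx1 lost its call with the mouse as a block, limma adjusted p = 0.161). Sqstm1 was at 0.73 in cKO (limma adjusted p = 0.0543) and was called there with the block (limma adjusted p = 0.02005). RNA levels say nothing of the amount or location of the NRF2 protein.

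Between genotypes, 0 of 101 other pathway genes tested in IL were called higher and 1 lower, and in CL 0 of 100 were called. That gene was Txnip. Its IL level averaged 479 ± 93.7 CPM over 4 Ctrl mice and 246 ± 13.4 CPM over 3 cKO mice (SD), a log2 difference of -0.93 (SE 0.14, limma adjusted p = 0.0283). The call was kept in 11 of 18 settings and lost on leaving out any library but the Ctrl IL libraries of mice 3546 and 3551, with adjusted p from 0.0872 to 0.141, with no filter on low values (limma adjusted p = 0.0676) and at a fold change of at least 2. In CL Txnip averaged 1329.6 ± 178 CPM in Ctrl and 869 ± 98.7 CPM in cKO (SD), also without overlap, and its log2 difference of -0.62 (SE 0.18) was not called (limma adjusted p = 0.212). In IL the log2 difference was -0.88 for Hmox1 (limma adjusted p = 0.344), -0.01 for Nfe2l2, -0.11 for Keap1 and 0.38 for Bach1. In CL it was -0.81 for Hmox1, -0.17 for Nfe2l2, -0.15 for Keap1 and 0.69 for Bach1 (limma adjusted p = 0.234).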

How the data were processed

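CD11b+ cells were sorted on magnetic columns, their RNA amplified with the SMART-Seq v4 kit, which does not mark strand, and sequenced on an Illumina instrument. Per the study's methods and the submitters' processing notes, the authors aligned reads with STAR to mm10 and quantified genes in Partek Flow (8.0). The deposited matrix is named for raw counts, yet each of its 14 columns sums to 1000000, so its values were taken as CPM made by the authors; 78.9% to 83.5% of values under 100 reads were whole multiples (within 0.03) of a step worth 1 read, which gave the depths, and count models, which the design had assumed, were not used. Both deposited lists of the authors' comparisons hold p-values, FDR, ratios, fold changes and group means and were not used. Symbols of 33802 of 33939 genes came from GENCODE vM21 (GRCm38), and 137 genes have none.

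CPM values were rescaled by TMM (30% and 5% trims, unweighted) and tested as log2(CPM + 1) with limma 3.58.1 (R 4.3.3; trended empirical Bayes, Benjamini-Hochberg adjustment over all genes tested). Genes needed the CPM of 10 reads at median depth in as many libraries as the smaller group and 15 reads in total. Hemispheres were compared within genotype and genotypes within hemisphere, each with the libraries of those 2 groups, and the interaction used all 14. The 10 members and the pathway and marker lists were chosen with earlier results of these data known. The text names all members, up to 6 called pathway genes of largest change per comparison, Nfe2l2, Keap1, Bach1, Hmox1, and the 3 genes most like each called member; Sqstm1, Maff, Rbx1 and the genes sharing sequence with members were named after their values were seen. Values of the deleted gene are not reported here.

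Mouse numbers pair hemispheres of the same animal. Over 6 such pairs, deviations from the group means correlated at r = 0.18 to 0.61 (median 0.41, across genes), against -0.54 to 0.50 (median -0.22) in 19 pairs of different mice. Mice 784 (IL) and 788 (CL) were taken as different animals, as numbered; their r of 0.181 was like that of mouse 791 (0.182), and whether they are 1 animal was not settled. The count of 8 mice and the cKO block of 2 mice rest on this. Libraries of a group come from different mice and are biological replicates, and limma p-values measure the spread between libraries. The main fits, the interaction included, had no term for the mouse, so both hemispheres of a mouse were treated as independent. Their p-values for IL against CL leave out the pairing, which the fits with the mouse as a block or random effect take in. For a single value, 4 against 3 libraries cannot give an exact permutation p below 0.0571.

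Alternatives were other scalings, pseudocounts, filters, call rules, fits over all 14 libraries, the mouse as a block and leaving out each library; the block without mouse 3546 was chosen after seeing the data. Python 3.11.15 (numpy 2.4.6, pandas 2.3.3), matplotlib 3.10.9 and blastn 2.17.0 were used for sequences and plots. Scripts were tested on simulated data with known changes.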

Additional observations from a re-analysis of the deposited data

Results flagged for a closer look

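Bach1, the repressor that competes with NRF2, was at 19.2 CPM in the CL library of Ctrl mouse 3546, against 12.2 to 13.1 CPM in the other 3 Ctrl CL libraries. The gap to its nearest neighbour was 0.862 of the group's range. It was 1 of 40 groups examined in this way, of which chance alone is known to mark about 1 in 20.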

How the results depend on the processing

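Of 990 values of the members recomputed under the alternatives, 929 kept their direction and their side of the threshold, 22 lost a call, 8 gained one and 31 turned sign; of 457 values of other named genes these were 421, 19, 2 and 15. No value that turned sign was called. With the mouse as a replicate block the calls over all genes went from 1078 to 3358 in Ctrl and from 3746 to 2310 in cKO (2 mice), and calls of Gpx3, Gclc and Gpx1 changed as given above and those of no other member; no paired analysis was possible between genotypes, which share no mice. The block without mouse 3546, chosen after seeing the data, called 3861 genes and 8 members in Ctrl, adding Gpx1 (0.69), Gpx3 (0.92) and Gpx4 (0.44), while Nqo1 had -0.027. A fold change of at least 2 left 3 of 6 members called in cKO. Without further scaling 43.4% of calls were higher in IL in each genotype, against 55.1% in Ctrl and 57.4% in cKO with TMM, and the Ctrl Gclc value was -0.0053. Ctrl Nfe2l2 was 0.034 with median-ratio and 0.047 with upper-quartile scaling, and 0.015 in both fits over all 14 libraries. The random effect for the mouse gave 0.024 for Nfe2l2 between genotypes in IL and -0.023 for Srxn1 in CL, where Gclm was 0.0070 with median-ratio and 0.047 with upper-quartile scaling and Gclc 0.026 with the latter. The causes were not tested.

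Calls over all genes were 487 to 4479 in Ctrl (561 with no filter, 555 at 2-fold, 2091 over all 14 libraries, 4479 with the random effect) and 822 to 3851 in cKO (822 at 2-fold, 1488 over all 14), and 46 to 284 in IL (66 with no filter, 191 with the random effect, 284 without Ctrl IL of mouse 3546) and 70 to 291 in CL between genotypes (95 with no filter, 86 with 10 reads in every library, 262 and 291 over all 14). Leaving out 1 library gave 487 to 1413 calls in Ctrl and 1881 to 3538 in cKO, with 4 to 5 and 4 to 7 members. Over the same omissions, values near 0 turned sign: in Ctrl, Gclc (-0.014 to 0.13), Gpx4 (-0.11 to 0.56) and Nfe2l2 (-0.15 to 0.14); in cKO, Keap1 (-0.0089 to 0.45). Between genotypes in IL these were Gpx1 (-0.16 to 0.60), Gpx4 (-0.47 to 0.17), Srxn1 (-0.34 to 0.054), Keap1 (-0.24 to 0.022) and Nfe2l2 (-0.13 to 0.093). In CL they were Slc7a11 (-0.027 to 0.34), Gclc (-0.19 to 0.062), Gclm (-0.18 to 0.070), Srxn1 (-0.053 to 0.16), Txnrd1 (-0.023 to 0.18) and Prdx1 (-0.38 to 0.0062). In the interaction they were Gpx1 (-0.34 to 0.43), Gpx3 (-0.57 to 0.066), Gpx4 (-0.33 to 0.32), Srxn1 (-0.38 to 0.016) and Nqo1 (-0.15 to 0.53). Nqo1 and Akr1b8 were low in CPM, and the part of low read numbers in their spread was not tested. With the smallest pseudocount tried, the value of Akr1b8 was 2.97 in Ctrl, against 1.96, and 2.26 in cKO, against 1.35.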
